A study of Mus musculus with 2 samples.

Results

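The accessibility of 10 forkhead genes was followed in single-cell chromatin accessibility data (scATAC-Seq) of mouse mammary organoids: Foxa1, Foxc1, Foxi1, Foxp1, Foxp2, Foxp4, Foxo1, Foxo3, Foxq1 and Foxm1. They were chosen because regions with a forkhead motif had lost accessibility in the same 2 libraries, so every difference given here is a description of these genes and no test of that choice. A region was assigned to a gene when it overlapped the gene body or lay within 50 kb of an annotated transcription start site (TSS). By this rule 309 of 223161 peaks of the DOX library and 310 of 229746 peaks of the EtOH library belonged to the 10 genes. Merging overlapping peaks gave 368 regions of 275294 in all. A peak of both libraries covered 249 of the 368 regions, hereafter shared regions, while 58 were found in DOX alone and 61 in EtOH alone, and no region belonged to more than 1 of the genes.

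Both libraries came from primary organoids of C57BL/6J mice with the genotype shTRPS1.34 ki/+; CAG-rtTA3 tg/+, in which doxycycline switches on a short hairpin RNA against Trps1 together with a turboGFP marker. TRPS1 is an atypical GATA-type zinc finger protein that represses transcription. The DOX library was made from organoids given doxycycline at 0.1 µg/ml for 7 days and the EtOH library from organoids given ethanol, the solvent, for as long. The CAG promoter was used to drive the transactivator in all cell types. The study reports, however, that in the mammary gland a small part of the cells stayed negative or low for GFP. No sorting on GFP is described for these libraries. The mice were adult, as the methods give an age range for all animals of the study but no age for these, and an effect of doxycycline itself cannot be told apart from that of the hairpin. The genotype is that of the labels, while a legend of the study describes the organoid donors of this experiment as wild type, in which there would be no hairpin to induce. The design text names 4 mice, whereas the methods describe equal cell numbers of fewer mice in a pool, and no cell carries a mouse label, so there was 1 library per group, no replicate and no test. Since the hairpin acts on the transcript, accessibility does not check the depletion.

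The DOX library held 3071 cells and 224762118 counts and the EtOH library 3104 cells and 211963715 counts, with 23 cell barcodes in both. Levels are given as counts scaled to the library's sum in shared regions (CPM, so that all shared regions add up to 1000000), and differences as the log2 ratio of DOX over EtOH with its 95% interval, which covers counting error only. Cells were clustered without the regions of the 10 genes. One cluster, named immune-like from its marker genes, with Ccl3, C1qb and Tyrobp among its leading genes, held 41.5% of the DOX cells and 8.92% of the EtOH cells, although the samples are labelled as mammary organoids. Clusters named hormone-sensing luminal-like held 3.45% of the DOX cells and 31.5% of the EtOH cells, a name that the EtOH cells did not reach when clustered alone. The basal-like cluster held 2.15% of the DOX cells and 3.87% of the EtOH cells, and no cluster of DOX cells clustered alone was named basal-like. Clusters 0 and 2, which stayed unnamed, held 86 DOX and 1687 EtOH cells and 1485 DOX and 21 EtOH cells, so each was nearly a single library. In the bulk of a library a region with fewer cells that open it and a region opened less per cell cannot be told apart, so ratios are given both over all cells and outside the immune-like cluster.

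Forkhead proteins bind DNA through a winged-helix domain that recognises a short AT-rich core. Foxa1 is a pioneer factor that can bind closed chromatin and opens sites for the estrogen receptor in hormone-sensing luminal cells of the mammary gland. Foxp1, Foxp2 and Foxp4 dimerise and mostly repress transcription. Foxo1 and Foxo3 are kept out of the nucleus by insulin and AKT signalling. Foxm1 drives genes of G2 and mitosis, Foxc1 acts in mesoderm and in basal-like breast cancer, Foxi1 specifies ion-transporting cells, and Foxq1 is known for its part in epithelial-mesenchymal transition.

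The 3 Foxa1 regions with the lowest ratios are shown with their motifs, as a description only, since the genes were chosen on the loss at forkhead motifs. Of the 6 Foxa1 regions that were at least 2-fold lower in DOX, the 3 lowest held both a forkhead core (TGTTTAC or TATTTAC, either strand) and a GATA core (AGATAA or TGATAA, either strand) in their central 300 bp. These 3 windows are shown from the mouse genome GRCm38 (mm10), with the forkhead core in capitals. All of them lie outside the gene, 34.2 kb and 49.5 kb downstream and 36.9 kb upstream of the nearest TSS.
Foxa1 downstream region, plus strand, chr12:57511771-57512070: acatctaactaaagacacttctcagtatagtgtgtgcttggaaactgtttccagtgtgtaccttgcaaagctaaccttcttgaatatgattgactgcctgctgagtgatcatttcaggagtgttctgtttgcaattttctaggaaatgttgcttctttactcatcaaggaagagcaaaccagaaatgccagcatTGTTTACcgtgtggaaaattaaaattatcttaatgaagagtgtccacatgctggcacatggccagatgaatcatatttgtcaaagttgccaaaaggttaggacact
Foxa1 upstream region, plus strand, chr12:57583664-57583963: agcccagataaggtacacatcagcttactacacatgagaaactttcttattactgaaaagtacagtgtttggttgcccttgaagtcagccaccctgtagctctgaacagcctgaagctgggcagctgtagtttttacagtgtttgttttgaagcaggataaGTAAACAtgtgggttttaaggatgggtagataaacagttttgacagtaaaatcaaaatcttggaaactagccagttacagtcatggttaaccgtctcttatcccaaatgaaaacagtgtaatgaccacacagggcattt
Foxa1 far downstream region, plus strand, chr12:57496514-57496813: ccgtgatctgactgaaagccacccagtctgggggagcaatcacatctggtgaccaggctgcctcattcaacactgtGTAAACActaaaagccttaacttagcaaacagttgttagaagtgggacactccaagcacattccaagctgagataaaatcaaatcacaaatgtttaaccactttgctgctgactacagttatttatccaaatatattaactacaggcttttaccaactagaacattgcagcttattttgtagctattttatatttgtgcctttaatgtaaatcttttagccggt

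Foxa1 is on the minus strand at chr12:57540628-57546916 (ENSMUSG00000035451.7). The downstream region of the first sequence had 0.847 CPM in DOX and 3.70 CPM in EtOH, a log2 ratio of -2.13 (-2.47 to -1.79). The upstream region had 1.29 and 4.72 CPM, a log2 ratio of -1.87 (-2.16 to -1.59). The far downstream region had 0.758 and 2.43 CPM, a log2 ratio of -1.68 (-2.06 to -1.31). The intervals of these ratios lay below -1, which is 2-fold, for each region. Outside the immune-like cluster their log2 ratios were -1.57, -1.27 and -1.15. Each is less far from 0, a direction that the scaling alone gives to regions nearly closed in immune-like cells.

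Within hormone-sensing luminal-like cells the libraries lay closer together. In cluster 3, which was hormone-sensing luminal-like and held 100 DOX and 483 EtOH cells, the upstream region had 13.8 CPM in DOX and 13.0 CPM in EtOH. The far downstream region had 7.14 and 7.32 CPM there, and the downstream region 9.05 and 11.7 CPM. The intervals of all 3 log2 ratios in cluster 3 included 0. In cluster 0 none of the 3 was above 0.698 CPM in EtOH, and in cluster 2 none was above 1.42 CPM in DOX. Among the levels given here, each of the 3 regions was highest in cluster 3, while those of clusters 4 and 5 are not given. The regions were picked for their low ratios. The class of cluster 3 made up 3.45% of DOX and 31.5% of EtOH cells. The part of this difference in cell makeup in the loss was not tested.

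All 13 shared regions of Foxa1 had a log2 ratio below 0, and 6 of them were at least 2-fold lower. A further 4 Foxa1 regions had a peak in DOX alone and 6 in EtOH alone, and these have no ratio. Those of DOX include a promoter region with 625 counts. Outside the immune-like cluster 9 of the 13 were below 0 and 3 were at least 2-fold lower. Of all shared regions that reached 100 counts, 57.0% were below 0 over all cells and 56.0% outside. As background for the calls, 13.4% of all these regions were 2-fold or more lower in DOX and 13.0% were 2-fold or more higher. The promoter region, within 1 kb of the TSS at chr12:57546367-57547299, was the most accessible, with 3920 counts in DOX and 4861 in EtOH. This is 18.4 CPM (17.6 to 19.3) in DOX and 24.2 CPM (23.3 to 25.2) in EtOH, a log2 ratio of -0.39 (-0.48 to -0.31). The promoter was slightly higher in DOX outside the immune-like cluster, with 28.6 CPM against 25.9 CPM and a log2 ratio of 0.14 (0.05 to 0.23). The direction at the promoter thus depended on whether immune-like cells were counted, which also sets the scaling. They gave 5.43% of its DOX counts, so leaving them out raises its ratio by the scaling.

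**Figure D1:**
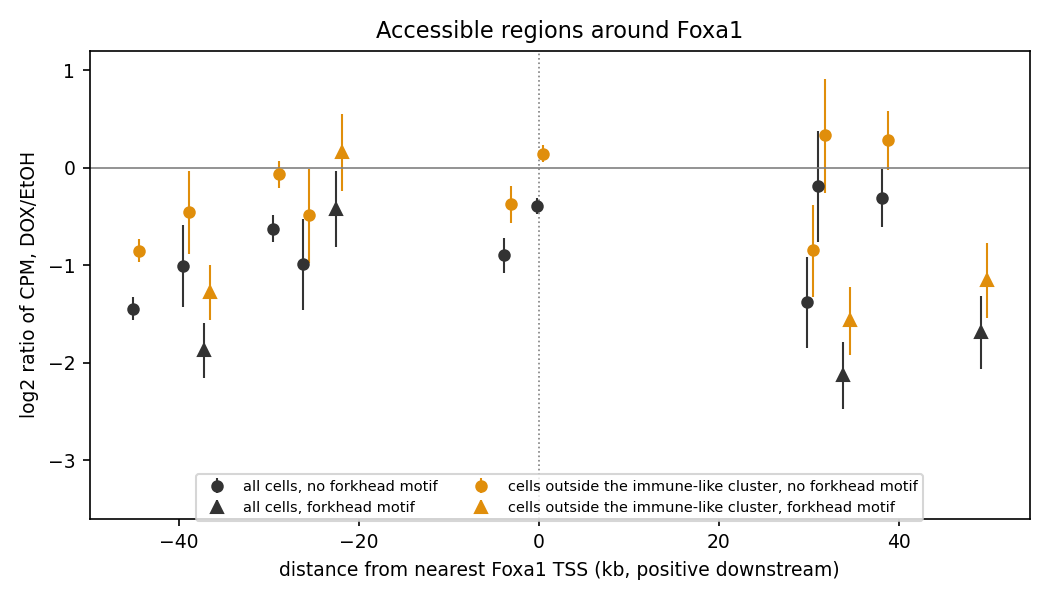
Log2 ratio of CPM (DOX over EtOH) of the 13 shared Foxa1 regions against distance from the nearest Foxa1 TSS in kb, with 95% counting intervals. Black marks all cells, orange the cells outside the immune-like cluster (shifted sideways for clarity), and triangles regions with a forkhead core; every black point is below 0, and the lowest, at -2.13, lies 34.2 kb downstream.

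The strongest distal region of Foxa1, 44.8 kb upstream at chr12:57591269-57592211, had no forkhead core in its centre and was also lower. It had 7.73 CPM in DOX and 21.0 CPM in EtOH, a log2 ratio of -1.44 (-1.56 to -1.33), and -0.85 outside the immune-like cluster. A region 29.3 kb upstream had 6.73 and 10.4 CPM, a log2 ratio of -0.63, and -0.07 (-0.21 to 0.07) outside. The highest ratio of any Foxa1 region was -0.19 (-0.76 to 0.38), for a region 31.4 kb downstream with 218 counts in all. Next to the 2-fold limit, the region 39.2 kb upstream was at -1.004 and the region 25.9 kb upstream at -0.984.

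Summed over its 13 regions, Foxa1 had 44.4 CPM (43.2 to 45.7) in DOX and 81.2 CPM (79.4 to 83.0) in EtOH, the lowest summed log2 ratio of the 10 genes at -0.87 (-0.92 to -0.82). Without the immune-like cluster it was -0.32 (-0.37 to -0.27). In EtOH, 65.5% of the Foxa1 counts came from hormone-sensing luminal-like cells, which gave 35.2% of all counts in shared regions. In DOX the same class gave 13.9% of the Foxa1 counts and 3.91% of all counts. The immune-like cluster was nearly closed at Foxa1, with 4.71 CPM in DOX and 3.20 CPM in EtOH.

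Within clusters the Foxa1 sum did not move alike. In cluster 3 it was 162 CPM in DOX and 165 CPM in EtOH, a log2 ratio of -0.03 (-0.16 to 0.10). In the basal-like cluster 5, with 66 DOX and 120 EtOH cells, it was 49.96 and 74.7 CPM, a log2 ratio of -0.58 (-0.87 to -0.29). In the unnamed cluster 0 it was 30.8 and 45.4 CPM, a log2 ratio of -0.56 (-0.98 to -0.17). The DOX side of cluster 0 rests on 86 cells with 108 Foxa1 counts, and the EtOH side on 1687 cells with 4814. Median depth there was 21027.5 counts per cell in DOX and 64491 in EtOH, so the cells compared were unlike in depth. In basal-like cells and in cluster 0 the sum was lower in DOX beyond counting error, and in cluster 3 it was not. Cluster 2, made of DOX cells with few exceptions, had 65.4 CPM (63.3 to 67.6) and so lay above cluster 0 of the EtOH library.

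**Figure D2:**
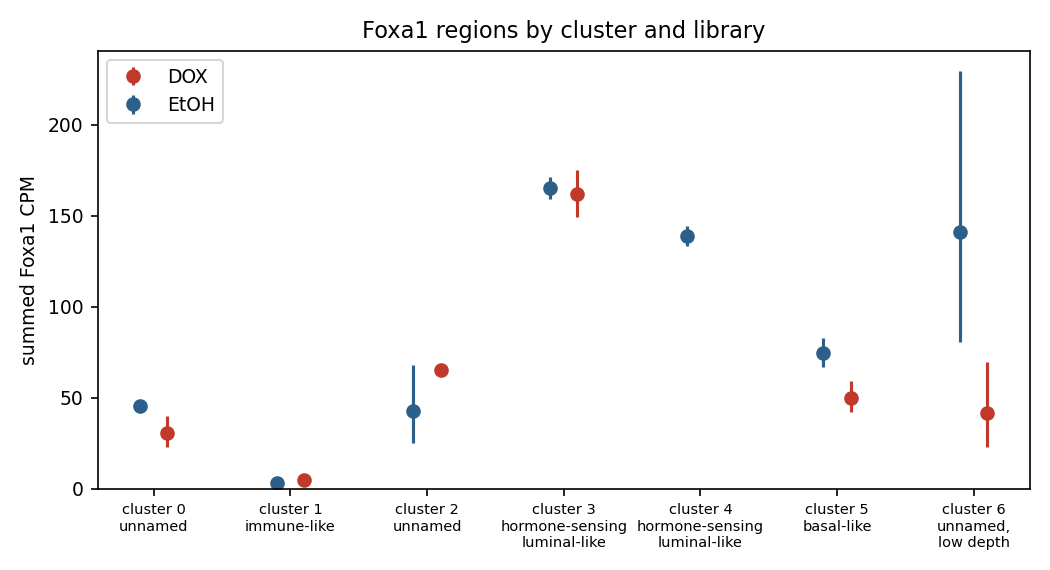
Summed CPM of the 13 Foxa1 regions by cluster and library, with 95% counting intervals. Clusters 3 and 4 reach 139 to 165 CPM, the immune-like cluster 1 stays below 5 CPM, and groups with fewer than 20 cells are left out. The unnamed cluster 6 of low depth lies at 141 CPM (80.7 to 229) in EtOH, on 21 cells and 32 counts.

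RefSeq places the Foxa1 TSS inside the GENCODE gene, and its 300-base promoter window (GRCm38.p6) ends just short of the shared promoter region. It is shown because it held a forkhead core, in capitals, as did 6.54% of 32851 RefSeq promoter windows. No shared region overlapped it. A RefSeq promoter window was found for 7 of the 10 genes, and in no other member did a window hold a forkhead core.
Foxa1 promoter, minus strand, chr12:57546062-57546361: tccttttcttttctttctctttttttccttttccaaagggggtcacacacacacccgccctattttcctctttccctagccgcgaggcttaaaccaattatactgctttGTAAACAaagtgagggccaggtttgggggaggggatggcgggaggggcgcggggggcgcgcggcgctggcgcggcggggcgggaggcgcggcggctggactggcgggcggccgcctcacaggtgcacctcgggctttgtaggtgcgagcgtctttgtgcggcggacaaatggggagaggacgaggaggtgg

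Among the 249 shared regions of all members, 45 were at least 2-fold lower and 27 at least 2-fold higher in DOX, which is 18.1% and 10.8% against the 13.4% and 13.0% of all regions. The median log2 ratio of the members' regions was -0.29 and that of all shared regions -0.13. Without the immune-like cluster 26 of 245 regions were lower and 9 higher, with 8.49% lower and 5.34% higher among all regions. There the median was -0.11 for the members and -0.06 for all regions. Foxp1 gave 103 of the 249 regions, and without it 27 were lower and 11 higher.

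The higher regions were split by the share of their DOX counts that came from immune-like cells. Of the 27 higher regions, 22 had between 73.5% and 98.2% of their DOX counts from immune-like cells, and 16 of these 22 were in Foxp1. None of the 22 was 2-fold higher outside the immune-like cluster, and their median log2 ratio was -0.05. The other 5 had from 0.556% to 36.0% of their DOX counts from immune-like cells. All 5 were at least 2-fold higher outside that cluster, with log2 ratios from 1.22 to 2.53. These percentages compare with 38.9% of all DOX counts in shared regions. The split by this share largely fixes whether a ratio rises or falls outside the cluster, so the outside ratios add no support.

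**Figure D3:**
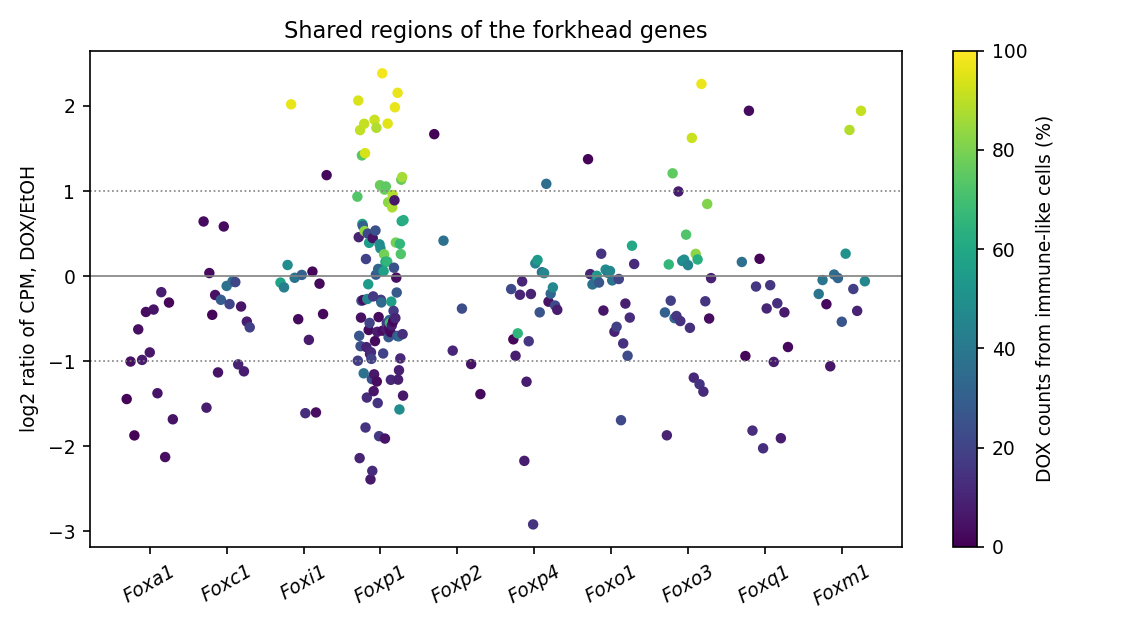
Log2 ratio of CPM (DOX over EtOH) of each of the 249 shared regions, by gene, ordered within a gene by distance from the TSS, and coloured by the share of DOX counts from immune-like cells in percent. Dotted lines mark 2-fold; most points above the upper line are yellow or green, with Foxi1, Foxp2, Foxp4, Foxo1 and Foxq1 each adding 1 blue or dark point.

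Those 5 regions were in 5 different genes. The region with the largest log2 ratio among them lay 31.2 kb upstream of Foxq1, with 4.87 CPM in DOX and 1.27 CPM in EtOH, a log2 ratio of 1.94 (1.66 to 2.23), and 2.53 outside the immune-like cluster. An intronic region of Foxp2, 25.3 kb upstream of an annotated TSS, had 1.69 and 0.533 CPM, a log2 ratio of 1.67. A region 49.3 kb upstream of Foxo1 had 11.4 and 4.41 CPM, a log2 ratio of 1.37 (1.22 to 1.53). A region 38.7 kb downstream of Foxi1 had 12.7 and 5.57 CPM, a log2 ratio of 1.19 (1.04 to 1.33), and one 25.1 kb downstream of Foxp4 had 11.9 and 5.62 CPM, a log2 ratio of 1.08.

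In cluster 2 the Foxi1, Foxo1 and Foxq1 regions had 22.5, 20.3 and 8.32 CPM in DOX. In cluster 0 they had 8.81, 5.95 and 0.754 CPM in EtOH. That the largely DOX cluster was higher at each largely follows from the choice of regions higher in DOX and adds no support. Cluster levels of the Foxp2 and Foxp4 regions are not given here. Within the basal-like cluster the Foxo1 region had 11.7 CPM in DOX and 7.12 CPM in EtOH, a log2 ratio of 0.72 (-0.02 to 1.46). The Foxq1 region had 4.62 and 1.62 CPM there, a log2 ratio of 1.52 (0.11 to 3.03). Both regions were picked as higher in DOX, and this cluster held 66 DOX and 120 EtOH cells. The level of the Foxi1 region in it is not given. None of the 5 held a forkhead core in its centre, while those of Foxi1, Foxo1 and Foxq1 held a GATA core, as did 21.1% of all shared regions. The centre of the Foxq1 region is shown with its 3 GATA cores in capitals.
Foxq1 upstream region, plus strand, chr13:31524820-31525119: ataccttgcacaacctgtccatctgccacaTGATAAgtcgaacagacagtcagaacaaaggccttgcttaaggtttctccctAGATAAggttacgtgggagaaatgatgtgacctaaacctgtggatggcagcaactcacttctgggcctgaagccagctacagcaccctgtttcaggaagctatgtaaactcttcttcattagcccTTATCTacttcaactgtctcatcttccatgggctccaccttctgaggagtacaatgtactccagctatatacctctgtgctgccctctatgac

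The forkhead core went with lower ratios in the members' regions, from which nothing is read since the genes were selected on that loss. It was found in the centre of 30 of the 249 regions (12.05%), against 9.19% of all shared regions. Of these 30, 14 were at least 2-fold lower in DOX and 1 was higher, and their median log2 ratio was -0.94. Of all shared regions with the core, 28.0% were at least 2-fold lower and 9.56% at least 2-fold higher. The 219 regions without the core had a median of -0.22. Among all shared regions the medians were -0.44 with the core and -0.10 without it. Outside the immune-like cluster 9 of the 30 were at least 2-fold lower and the median was -0.73, against 19.8% lower and a median of -0.29 for all regions with the core.

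**Figure D4:**
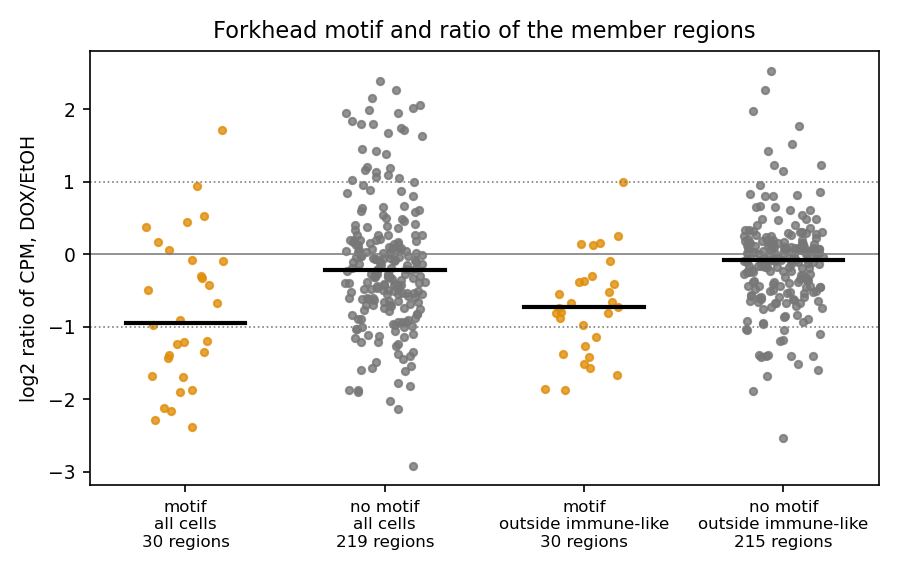
Log2 ratio of CPM (DOX over EtOH) of the members' shared regions with and without a forkhead core, over all cells and outside the immune-like cluster (regions with at least 100 counts there); black bars are medians and dotted lines 2-fold. Medians with the core are -0.94 and -0.73, and without it -0.22 and -0.08.

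Of the 14 lower regions with a forkhead core, 7 were in Foxp1 and 3 in Foxa1. The lowest such regions of Foxp1, Foxp4 and Foxo1, all in introns, are shown with the forkhead core in capitals.
Foxp1 intron, plus strand, chr6:99173831-99174130: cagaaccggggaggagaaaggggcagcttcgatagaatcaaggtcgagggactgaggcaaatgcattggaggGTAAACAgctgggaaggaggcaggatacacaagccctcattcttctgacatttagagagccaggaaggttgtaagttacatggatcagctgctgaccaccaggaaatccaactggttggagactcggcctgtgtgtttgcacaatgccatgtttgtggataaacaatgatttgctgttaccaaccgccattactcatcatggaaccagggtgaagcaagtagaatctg
Foxp4 intron, plus strand, chr17:47899228-47899527: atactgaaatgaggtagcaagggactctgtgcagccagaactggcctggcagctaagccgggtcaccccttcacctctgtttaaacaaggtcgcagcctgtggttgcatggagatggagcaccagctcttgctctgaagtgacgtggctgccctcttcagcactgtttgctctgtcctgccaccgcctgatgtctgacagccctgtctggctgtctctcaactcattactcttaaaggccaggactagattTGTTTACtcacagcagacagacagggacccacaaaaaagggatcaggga
Foxo1 intron, plus strand, chr3:52297594-52297893: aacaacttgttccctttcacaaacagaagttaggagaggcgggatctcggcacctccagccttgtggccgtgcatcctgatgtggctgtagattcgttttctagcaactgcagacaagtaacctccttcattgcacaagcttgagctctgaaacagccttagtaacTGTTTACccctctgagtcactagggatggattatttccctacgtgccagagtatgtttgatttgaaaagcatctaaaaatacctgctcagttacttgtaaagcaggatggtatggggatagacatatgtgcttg

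The Foxp1 region, at chr6:99173557-99174405, had 1.21 CPM in DOX and 6.36 CPM in EtOH, a log2 ratio of -2.39 (-2.67 to -2.11). The Foxp4 region, at chr17:47898952-47899805, had 2.33 and 10.5 CPM, a log2 ratio of -2.17 (-2.38 to -1.97). The Foxo1 region, at chr3:52297274-52298215, had 1.84 and 5.95 CPM, a log2 ratio of -1.69 (-1.93 to -1.46). Outside the immune-like cluster the log2 ratios were -1.88, -1.67 and -1.42. In cluster 3 the Foxp1 region had 9.43 CPM in DOX and 14.6 CPM in EtOH, a log2 ratio of -0.63 (-1.17 to -0.12). The Foxp4 region had 25.4 and 33.5 CPM there, a log2 ratio of -0.40 (-0.72 to -0.09), and the Foxo1 region 15.04 and 17.1 CPM, a log2 ratio of -0.19 (-0.62 to 0.22). Within this cluster the Foxp1 and Foxp4 regions were lower in DOX beyond counting error and the Foxo1 region was not. All 3 were picked for low ratios from counts that include this cluster, so this adds no support. In the immune-like cluster none of the 3 was above 1.03 CPM. Among the groups of 1 cluster and 1 library with at least 50 cells, each of the 3 had its highest level in the EtOH cells of cluster 3. The pick also favours a high level in EtOH cells.

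Foxp1, whose body spans 597 kb of chr6, held the widest range, with log2 ratios from -2.39 to 2.38. The highest was a region over an internal promoter at chr6:99434845-99435699, with 10.8 CPM in DOX and 2.07 CPM in EtOH, a log2 ratio of 2.38 (2.17 to 2.60). Of its DOX counts 98.2% came from immune-like cells, where it had 27.2 CPM in DOX and 26.6 CPM in EtOH. In clusters 0, 3, 4 and 5 it was at or below 0.570 CPM, and the log2 ratio outside the immune-like cluster was 0.24 (-0.68 to 1.14). The most accessible Foxp1 region, an intronic one with 15.7 and 24.4 CPM, had a log2 ratio of -0.63 (-0.72 to -0.54). Summed over 103 regions Foxp1 was at 380 CPM in DOX and 399 CPM in EtOH, a log2 ratio of -0.07 (-0.09 to -0.05). With the median ratio of all shared regions set to 0, a shift of 0.13, the Foxp1 sum was at 0.06 and so on the other side of 0, as was the Foxm1 sum. In the basal-like cluster the sum was 466 against 577 CPM, a log2 ratio of -0.31 (-0.41 to -0.21).

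Foxp4 held the region with the lowest ratio of all members, an intronic one at chr17:47889437-47890307 with 0.875 CPM in DOX and 6.61 CPM in EtOH, a log2 ratio of -2.92 (-3.25 to -2.60). It was at -2.54 outside the immune-like cluster. In cluster 3 it had 8.92 CPM in DOX and 20.7 CPM in EtOH, a log2 ratio of -1.22 (-1.76 to -0.71). The region was picked as the lowest from counts that include this cluster, so this value adds no support. Its promoter had 31.9 and 28.7 CPM, a log2 ratio of 0.15 (0.08 to 0.22), while the sum over its 22 regions was lower, at -0.22. With regions up to 2 kb from a TSS counted as promoter, the Foxp4 promoter was at -0.11. Foxp2 had 6 shared regions, with a sum of 7.95 CPM in DOX and 10.2 CPM in EtOH. Its promoter had the lowest promoter ratio of the members, -0.69 (-0.85 to -0.53) over all cells and -0.30 (-0.47 to -0.13) outside the immune-like cluster.

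The FoxO genes showed promoters near equality and distal regions on both sides. The Foxo1 promoter had 33.4 CPM in DOX and 32.5 CPM in EtOH, a log2 ratio of 0.04 (-0.03 to 0.11). The Foxo3 promoter had 102 and 89.5 CPM, a log2 ratio of 0.19 (0.15 to 0.23), and 0.01 outside the immune-like cluster. The highest Foxo3 region, in an intron, had 8.08 and 1.69 CPM, a log2 ratio of 2.26, with 97.0% of its DOX counts from immune-like cells. The lowest, 26.6 kb upstream, had 1.46 and 5.35 CPM, a log2 ratio of -1.87, and -1.41 outside. Foxo3 was the member with the largest share of its DOX counts from immune-like cells (46.9%).

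Foxc1 and Foxi1 had promoters lower over all cells and level outside the immune-like cluster. The Foxc1 promoter had 24.4 CPM in DOX and 30.6 CPM in EtOH, a log2 ratio of -0.33 (-0.40 to -0.25), and -0.00 (-0.08 to 0.08) outside. The Foxi1 promoter had 4.70 and 6.68 CPM, a log2 ratio of -0.51 (-0.68 to -0.34), and 0.08 (-0.10 to 0.25) outside. The Foxi1 promoter had 0.315 CPM in immune-like and 8.05 CPM in cluster 2 cells of DOX. The lowest Foxi1 region, 18.5 kb downstream, was at -1.61, and the highest, 12.8 kb upstream, at 2.02 with 96.9% of DOX counts from immune-like cells. For Foxc1 the ratios ran from -1.55, 38.0 kb upstream, to 0.64, 41.0 kb upstream.

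Foxq1 had no shared region within 1 kb of its TSS. Its most accessible region, 8.3 kb upstream, had 24.8 CPM in DOX and 21.6 CPM in EtOH, a log2 ratio of 0.20 (0.12 to 0.29), while a region 4.7 kb upstream was lower at -2.02 and one 21.6 kb downstream at -1.90. Over all 14 regions Foxq1 was lower at -0.34 (-0.38 to -0.30), and higher at 0.12 (0.09 to 0.16) outside the immune-like cluster. The Foxm1 promoter, part of which is also that of Rhno1, had 26.8 and 23.8 CPM, a log2 ratio of 0.17 (0.09 to 0.25), and -0.03 (-0.13 to 0.06) outside. Its lowest region, 13.1 kb upstream, was at -1.06 and its highest, 37.8 kb downstream, at 1.94 with 91.0% of DOX counts from immune-like cells.

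At the promoters, 4 of the 9 members with a shared promoter region were lower beyond counting error (Foxa1, Foxc1, Foxi1 and Foxp2), 4 were higher (Foxp1, Foxp4, Foxo3 and Foxm1) and Foxo1 was neither. Of 16339 promoters of coding genes, 24.3% were lower and 53.8% higher beyond counting error. None was 2-fold apart, against 1.67% lower and 3.43% higher of the same promoters. Outside the immune-like cluster 1 of the 9 was higher (Foxa1) and 1 lower (Foxp2), against 25.3% higher and 16.6% lower of all promoters. The 4 genes with higher promoters had promoter levels of 33.1 to 127 CPM in the immune-like cells of DOX, and the 4 with lower promoters 0.315 to 12.6 CPM. Foxo1, which was neither, had 36.1 CPM there, within the range of the higher promoters. A link between these levels and the direction was not tested.

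**Figure D5:**
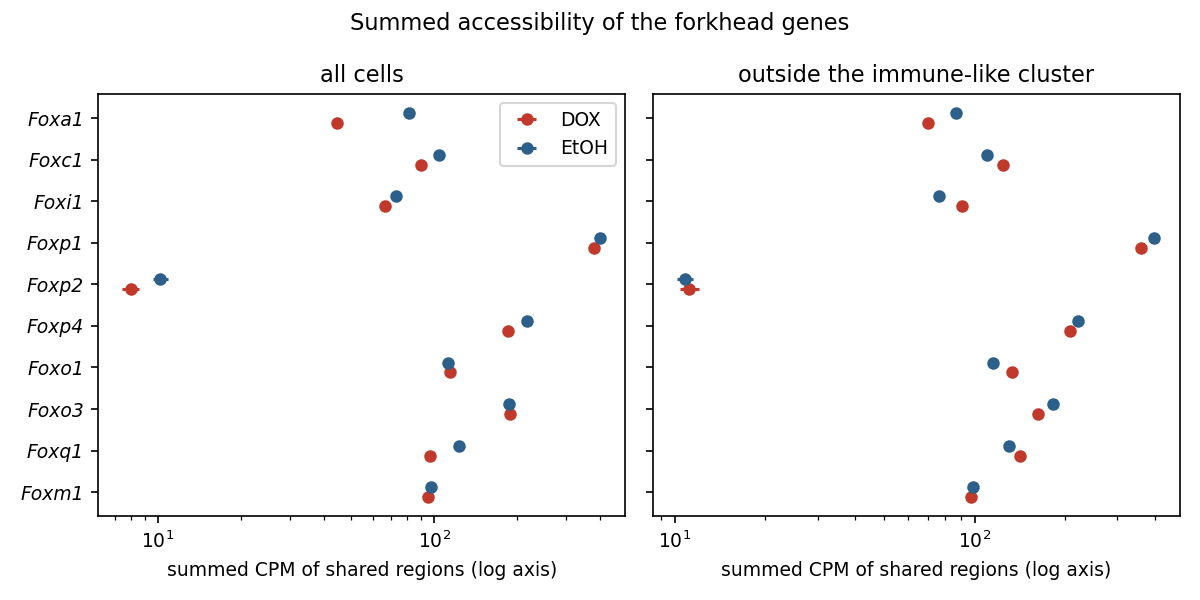
Summed CPM over the shared regions of each gene on a log axis, in DOX and EtOH, over all cells (left) and outside the immune-like cluster (right), with 95% counting intervals. Foxa1 shows the widest gap on the left, 44.4 against 81.2 CPM, and Foxc1, Foxi1 and Foxq1 are lower in DOX on the left and higher on the right.

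Other forkhead genes were taken from a list of 34, of which 27 had a shared promoter region. Of these, 13 were higher and 10 lower in DOX beyond counting error, against the 53.8% and 24.3% of all promoters, with a median log2 ratio of 0.09, beside 0.09 for all promoters. Without the immune-like cluster 6 were higher and 3 lower, with a median of -0.00, against 25.3% higher and 16.6% lower of all promoters. Foxf2, a gene of mesenchymal cells, was the only one 2-fold apart, with 4.96 CPM in DOX and 1.78 CPM in EtOH. Its log2 ratio was 1.48 (1.23 to 1.73), and 0.86 outside the immune-like cluster. Within that cluster it had 7.46 CPM in DOX and 0.873 CPM in EtOH, on 617 and 12 counts. The log2 ratio there was 3.10 (1.96 to 4.55). The lowest was Foxd3 at -0.93. The related pioneer gene Foxa3 had a log2 ratio of 0.18 at its promoter.

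Partners and luminal targets of Foxa1 were mostly lower over all cells and on both sides of 0 outside the immune-like cluster. Of 14 promoters, 11 were lower and 3 higher beyond counting error, with a median of -0.39, where 24.3% of all promoters were lower and 53.8% higher. Outside 4 were lower and 5 higher with a median of 0.03, where 16.6% of all promoters were lower and 25.3% higher. Grhl2, an epithelial pioneer factor, was lowest with 28.6 CPM in DOX and 47.3 CPM in EtOH, a log2 ratio of -0.73 (-0.79 to -0.66). Xbp1, a factor of the unfolded protein response, was highest at 0.21. Esr1, the estrogen receptor gene, was at -0.42 (-0.50 to -0.35), and at -0.23 (-0.31 to -0.14) outside. None of the 14 was 2-fold apart.

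Of 12 targets of FoxO factors, 11 promoters were higher and 1 lower in DOX beyond counting error, with a median of 0.13, against 53.8% higher and 24.3% lower of all promoters. With immune-like cells left out 4 were higher and 1 lower, with a median of 0.04, against 25.3% higher and 16.6% lower of all promoters. The highest was Pdk4, a kinase that shuts down pyruvate oxidation, at 0.39 (0.27 to 0.51), and 0.96 (0.84 to 1.09) outside the immune-like cluster. The lowest was the insulin receptor gene Insr at -0.11. Of 12 targets of FoxM1, 10 were higher and none lower beyond counting error, against the same 53.8% and 24.3% of all promoters. Their median was 0.10, which is close to that of all promoters. Without immune-like cells 1 was higher and 1 lower, against 25.3% and 16.6% of all promoters. The median was then 0.01, beside 0.02 for all promoters. The proliferation marker gene Mki67 was highest at 0.48 (0.41 to 0.55), and 0.14 outside, and the cyclin gene Ccnb1 lowest at 0.02. None of these promoters was 2-fold apart.

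Over 10 sums of clusters and libraries with at least 50 cells, the promoters most like that of Foxa1 among 15880 genes were those of Ryr2, Mboat1, 4930452B06Rik, Zfp362 and Ube2u, with Pearson correlations of log2 CPM from 0.98 to 0.99. The points share the same 2 libraries and the same scaling. Among the members Foxp2 was most like Foxa1 (0.95) and Foxo3 the most opposite (-0.98).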

How the data were processed

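Single-cell chromatin accessibility was measured with 10x Genomics kits in 1 DOX and 1 EtOH library of mammary organoids. The authors deposited counts of transposition events per peak and cell for the barcodes kept as cells, with peaks called per library. The matrix header names Cell Ranger ATAC 2.0.0 and the submitters' processing notes Cell Ranger and mm10. The values are whole numbers that were not normalized. The peak coordinates and cell barcodes were deposited beside the counts. Since both ends of a fragment are counted, only 13.8% (DOX) and 14.3% (EtOH) of the values were odd, so intervals were computed from counts divided by 2.

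Peaks of both libraries were merged where they overlapped, and ratios used regions with a peak of both libraries. Regions were scaled to the counts in shared regions, and calls needed 2-fold and 100 counts. Genes and TSSs came from GENCODE M21, sequences from GRCm38.p6, which has the chromosome names and lengths of mm10. Cells were clustered by latent semantic indexing (components 2 to 30, 15 neighbours, Leiden resolution 0.5; scikit-learn 1.9.0, leidenalg 0.10.2). A cluster was named when the median log2 fold of a marker list reached 0.5 and led the next list by 0.25. It stayed unnamed if too few markers of the list were detected or another list had more markers among its leading genes. Clusters of low depth with no marker of the list among their leading genes also stayed unnamed. No doublet caller was run. Intervals are exact binomial or Poisson ones at 95%, and the interval code was tested on simulated data. The members, marker lists and gene lists were chosen with earlier results of these data known.

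All 10 members were named, with, per gene, the promoter and the highest, the lowest and the most accessible shared region among those with at least 200 counts. From other lists genes 2-fold apart were named, or else the highest and the lowest. Esr1 and Foxa3, the other regions 2-fold higher with few immune-like counts, and the regions next to a threshold were named after their values were seen. The forkhead, GATA, ETS and AP-1 motifs were searched on both strands of the central 300 bp. No test was run, because each group has 1 library.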

Additional observations from a re-analysis of the deposited data

Results flagged for a closer look

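Peaks found in 1 library alone were outside the comparisons, since the other library has no counts there. They made up 15.8% (DOX) and 16.6% (EtOH) of the members' regions and 17.0% and 19.4% of all regions. Among them, 13 held at least 500 counts. In DOX these were an intronic Foxo3 region with 709 counts, a region downstream of Foxp4 with 688, a promoter region of Foxa1 with 625 and an intronic Foxp1 region with 510. In EtOH they were Foxp4 regions with 1879, 916 and 603 counts, a Foxp1 promoter region with 909, an intronic Foxo1 region with 792, exonic Foxc1 regions with 670 and 655, and regions upstream of Foxa1 with 585 and 523.

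A pair of Foxp1 regions had intervals on opposite sides of 0 in different clusters, a difference that was not tested. The region at chr6:99489598-99490522 was at 2.50 in the hormone-sensing luminal-like cluster 3, on 12 DOX and 9 EtOH counts, and at -0.21 in the immune-like cluster. The region at chr6:99522617-99523548 was at 0.50 in the immune-like cluster and at -0.96 in the basal-like cluster.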

How the results depend on the processing

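Of 155 values recomputed under alternatives, 92 stayed within the counting interval or within 1.5 times the count, 52 moved and 11 whose interval had excluded 0 changed sign; 23 of the last 2 kinds came from leaving out immune-like cells. Outside immune-like clusters 26 regions were lower and 9 higher, the median ratio was -0.11, 9 regions with a forkhead core were lower, 1 promoter of the other members (3 over all cells) and 4 summed ratios (8 over all cells) were lower. There the sign changed for the promoters of Foxa1 (0.14), Foxi1 (0.076) and Foxm1 (-0.032) and for the sums of Foxc1 (0.18), Foxi1 (0.26), Foxp2 (0.048) and Foxq1 (0.12). Among values whose interval included 0, 4 more crossed 0, namely the Foxo3 sum (-0.17) and the Foxo1 promoter (-0.026) outside immune-like clusters, and the Foxo1 sum within 10 kb of a TSS (-0.082) and without the deepest cells (-0.0040). With the median ratio set to 0 the Foxa1 promoter was at -0.27, 5 sums were lower, and the sums of Foxp1 (0.056) and Foxm1 (0.083) changed sign. Without the 5% of cells of highest depth the Foxa1 promoter was at -0.49. Within 10 kb of a TSS 27 regions were lower and the Foxm1 sum was at 0.17. With promoters up to 2 kb, 5 were lower and Foxp4 was at -0.11. A 1.5-fold limit gave 82 lower regions. Alternatives chosen after seeing the data were no Foxp1 regions (27 lower, 11 higher, 7 with a forkhead core lower) and the core searched in whole regions (22 lower). Leaving out immune-like cells also rescales the counts, which by itself raises the ratios of regions nearly closed in those cells. Any further cause of these shifts was not tested. Clustered on its own, EtOH had no cluster named hormone-sensing luminal-like, and 7.82% of DOX cells were, while DOX had no cluster named basal-like. No paired analysis was possible because DOX and EtOH are single libraries.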
